A study of Mus musculus with 6 samples.

Results

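The genes described here are 8 surface receptors by which T cells enter the gut or stay in it, out of 32285 genes in the deposited single-cell matrices. They were chosen by name: the chemokine receptors Ccr9, Cxcr6, Cxcr3 and Ccr6, the integrin subunits Itgae, Itga4 and Itgb7, and the early activation antigen Cd69. The choice was made with earlier results of these data known. All 8 names were found in each of the 4 gene-expression libraries.

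The libraries hold OT-II CD4+ T cells, whose transgenic receptor recognises ovalbumin, from RAG-deficient (OTII+/+RAG-/-) donors. In the mutant libraries (mutant 1 and mutant 2) the donor cells were TgfbrIWT/mut, heterozygous for a germline M318R knock-in in Tgfbr1, the type I TGF-beta receptor. In the WT libraries (WT 1 and WT 2) they were WT. Cells of both genotypes were injected into CD45.1 WT hosts given 1.5% ovalbumin in their water for 7 days. Peyer's patches were taken on day 8, and donor cells were sorted as CD45.2+CD45.1-CD4+CD8-TCRβ+. The hosts therefore kept their own WT lymphocytes, and every donor T cell shared 1 antigen receptor. The labels give no age for these animals, no number of animals per library and no rapamycin or peanut treatment of these samples. All p-values therefore rest on how far the libraries of a genotype lie apart, and that distance may be technical.

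Homing to the small intestine is imprinted in lymphoid tissue that drains the gut. There, retinoic acid raises CCR9, the receptor for CCL25 of the small-intestinal epithelium, and the integrin α4β7, which binds MAdCAM-1 on gut and Peyer's patch venules. TGF-beta raises CD103, the product of Itgae, which pairs with β7 and binds E-cadherin on epithelial cells. CXCR6 binds CXCL16, CCR6 binds CCL20 at the follicle-associated epithelium, CXCR3 binds interferon-induced chemokines, and CD69 holds S1PR1 off the cell surface and so keeps T cells in tissue.

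After filtering, 872 and 178 T cells were kept in the mutant libraries and 1273 and 623 in the WT libraries, with 7621017 and 1622879 UMIs against 11867652 and 5521285 UMIs. Median UMIs per kept cell lay between 8525.5 and 8981.5 in the 4 libraries. Barcodes over the limit on mitochondrial UMIs made up 41.4% and 22.0% of the mutant libraries and 25.5% and 37.4% of the WT libraries. Mutant 2 was the smallest library, and 23 barcodes occurred in more than 1 library, 11 of them as kept cells. Rows for 3 antibody tags occur in the WT matrices and none in the mutant matrices, so tagging and genotype cannot be told apart. The sorted identity held in the RNA of most kept cells. Cd3e was detected in 98.4% and 98.9% of kept mutant cells and in 99.7% and 99.5% of kept WT cells. Cd4 was detected in 89.8% and 84.3% of kept mutant cells and in 88.0% and 87.8% of kept WT cells. Cd8a had a UMI in at most 0.562% of any library. Cd8b1 had one in 2.98% and 1.69% of kept mutant cells and in 5.58% and 4.17% of kept WT cells.

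The kept cells fell into 11 clusters that were computed without the 8 receptors, so that the receptors did not make them. Clusters 0 and 2 were Tfh-like (T follicular helper), clusters 1 and 4 Recently stimulated-like, cluster 3 Naive or memory-like, cluster 8 Cytotoxic-like and cluster 11 Proliferating-like, by marker genes. Clusters 5, 6, 9 and 10 kept their numbers, because no marker list gave them a name without a tie. Cluster 9 was shallow, with a median of 3333 UMIs. Its median share of mitochondrial UMIs was 7.51%, against 3.16% over all kept T cells. It made up 6.42% and 14.6% of kept cells in the mutant libraries, against 1.10% and 3.37% in the WT libraries. A cluster of 131 cells with epithelial and B cell genes was left out.

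Cluster 10, with 88 cells, was where the receptors met. It was led by Gzmb (granzyme B), Cxcr6, Ccr9, Ccl5 (a chemokine), Il10 (an inhibitory cytokine), Neb and Foxp3 (the regulatory T cell transcription factor), and regulatory, Th1 and effector marker lists tied for its name. Foxp3 had a UMI in 71.6% of its cells, Il10 in 62.5% and Gzmb in 31.8%. Ccr7, the lymph node homing chemokine receptor, had 3 UMIs there. The same 88 cells formed a cluster at the lower clustering resolution of 0.4.

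Markers of other cell types were present in cluster 10 to differing degrees. Of 14 epithelial markers 9 were at 0, including Krt8, Krt18 and Cdh1, with 28 UMIs of Epcam, and their summed level was 46.9 CPM, against 18.4 and 25.3 CPM in the mutant libraries and 10.9 and 17.2 CPM in the WT libraries. Of 10 B cell markers 5 were at 0, including Cd79a and Ms4a1, while Ighm had 237 UMIs. Their sum was 383 CPM, against 290 and 319 CPM in the mutant libraries and 317 and 227 CPM in the WT libraries.

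Of 9 CD8 or intraepithelial markers Cd8a, Klrk1 and Tyrobp were at 0 and Trdc had 178 UMIs. Their sum was 298 CPM in cluster 10, against 523 and 426 CPM in the mutant libraries and 555 and 562 CPM in the WT libraries. Of 7 NK or innate lymphoid markers Ncr1, Klrb1c and Tyrobp were at 0 and Gata3 had 87 UMIs, and the sum was 186 CPM, against 60.0 to 84.2 CPM in the libraries.

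Of 12 myeloid or dendritic markers 8 were at 0, including Lyz2, Itgax and Csf1r, and Cst3 had 106 UMIs. Their sum was 182 CPM in cluster 10, against 83.2 to 96.3 CPM in the libraries. Of 6 plasma cell markers Mzb1, Sdc1 and Igha were at 0, while Prdm1 and Xbp1, which T cells also use, had 105 and 65 UMIs. Their sum was 251 CPM in cluster 10, against 73.5 and 50.5 CPM in the mutant libraries and 228 and 63.9 CPM in the WT libraries, so that WT 1 stood highest. The part of these transcripts in the receptor levels was not tested.

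**Figure D1:**
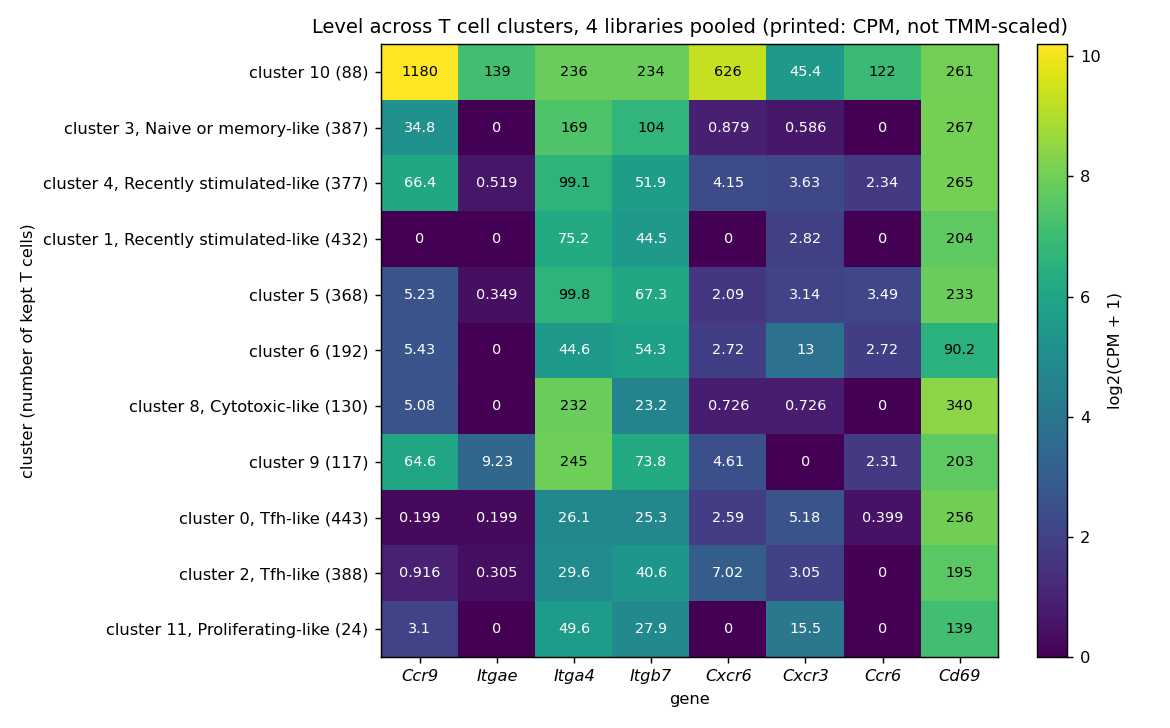
Level of the 8 receptors in each of the 11 clusters of kept T cells, with the 4 libraries pooled. Colour is log2(CPM + 1), the printed number is CPM (counts per library total, not TMM-scaled), and rows give the cluster with its number of cells. Cluster 10 is the highest row for every receptor except Itga4 and Cd69.

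Ccr9 marks T cells bound for the small intestine. It lies on chromosome 9 from 123678439 to 123784330 on the plus strand (mm10, GENCODE M21). Lztfl1 and Slc6a20a overlap it on the opposite strand, and their reads cannot be told apart from its own where counting ignores strand. Gm17200, a long noncoding RNA that was also counted, overlaps it on the same strand. The level of Ccr9 was 1180 CPM in cluster 10 and 17.0 CPM in all other kept T cells together. Cluster 10 held 805 of the 1245 Ccr9 UMIs, 64.7%, and 82 of its 88 cells had at least 1.

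Outside cluster 10, Ccr9 was unevenly spread. Clusters 3, 4 and 9 held 403 of the remaining 440 UMIs, 91.6%, at 34.8, 66.4 and 64.6 CPM, and their library ranges overlapped. Cluster 9 rested on 1 cell of WT 2 with 23 UMIs, beside 5 UMIs in 2 cells of mutant 1. Clusters 5, 6 and 8 gave 5.08 to 5.43 CPM, and all 10 UMIs of cluster 6 lay in 1 cell of WT 1. The Tfh-like clusters 0 and 2 gave 0.199 and 0.916 CPM. Cluster 1 had 0 Ccr9 UMIs in 432 cells, where a floor of 3 cells corresponds to a share of 0.694% of cells with a UMI. The 2 Recently stimulated-like clusters thus stood apart in Ccr9, although the rules gave them 1 name.

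Cxcr6, a receptor of tissue-resident and effector T cells, was concentrated in cluster 10 as well. It lies near Ccr9 on chromosome 9, from 123806475 to 123811760 on the plus strand. Between them are 22144 bases, and no annotated gene lies wholly inside that stretch. Cxcr6 overlaps Fyco1 on the opposite strand, so the search for genes wholly inside the stretch could not count Fyco1. Cluster 10 held 427 of 496 Cxcr6 UMIs, 86.1%, with 82.2% in mutant 1 and 0 of 2 UMIs in mutant 2, against 90.5% and 80.0% in the WT libraries. Its pooled level in cluster 10 was 626 CPM, against 2.66 CPM in the other kept T cells. The Tfh-like cluster 2 came next, with 7.02 CPM, and its library range overlapped that of cluster 9. The other Tfh-like cluster, cluster 0, had 2.59 CPM, and cluster 1 again had 0 UMIs.

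Ccr6, which guides cells under the follicle epithelium, had most of its UMIs there in mutant 1 and WT 1 but not in WT 2. Cluster 10 held 83 of its 110 UMIs, 75.5%, at 122 CPM, against 1.04 CPM in the other kept T cells. In WT 2 it held 6 of 17 UMIs, 35.3%, and 9 UMIs lay in 2 cells of cluster 5. The gene was at 0 UMIs in clusters 1, 2, 3, 8 and 11. Cxcr3, a receptor of Th1 cells, was sparse and more spread: cluster 10 held 31 of 132 UMIs, 23.5%, at 45.4 CPM, and cluster 6 followed with 13.0 CPM. Cluster 11 gave 15.5 CPM, from 5 UMIs in 1 cell of WT 1.

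The integrin subunits differed among themselves. Itgae, which encodes CD103 (the αE chain), had 95 of its 104 UMIs, 91.3%, in cluster 10, at 139 CPM against 0.347 CPM in the other kept T cells. It lies on chromosome 11 from 73090583 to 73147446 on the plus strand and overlaps Haspin on the other strand. Itgb7, the β7 chain that pairs with either αE or α4, was present in every cluster: 234 CPM in cluster 10, then 104 CPM in cluster 3, and 23.2 CPM in cluster 8 as the lowest. Cluster 10 held 10.7% of its UMIs.

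Itga4, the α4 subunit, also occurred in every cluster, with a 9.36-fold span. Clusters 9 (the shallow one), 10 and 8 gave 245, 236 and 232 CPM and did not differ beyond the spread of their libraries. Cluster 3 followed with 169 CPM. The Tfh-like clusters 0 and 2 were lowest, at 26.1 and 29.6 CPM. Itgb1, the β1 subunit with which α4 can also pair, chosen here after its values were seen, was lowest in cluster 10, at 10.3 CPM, and reached 113 CPM in cluster 8.

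Cd69 was the most even of the 8. Its level spanned 90.2 CPM in cluster 6 to 340 CPM in cluster 8, a 3.77-fold span. Cluster 10, at 261 CPM, stood among clusters 3 and 4, at 267 and 265 CPM. Only 2.87% of Cd69 UMIs lay in cluster 10.

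**Figure D2:**
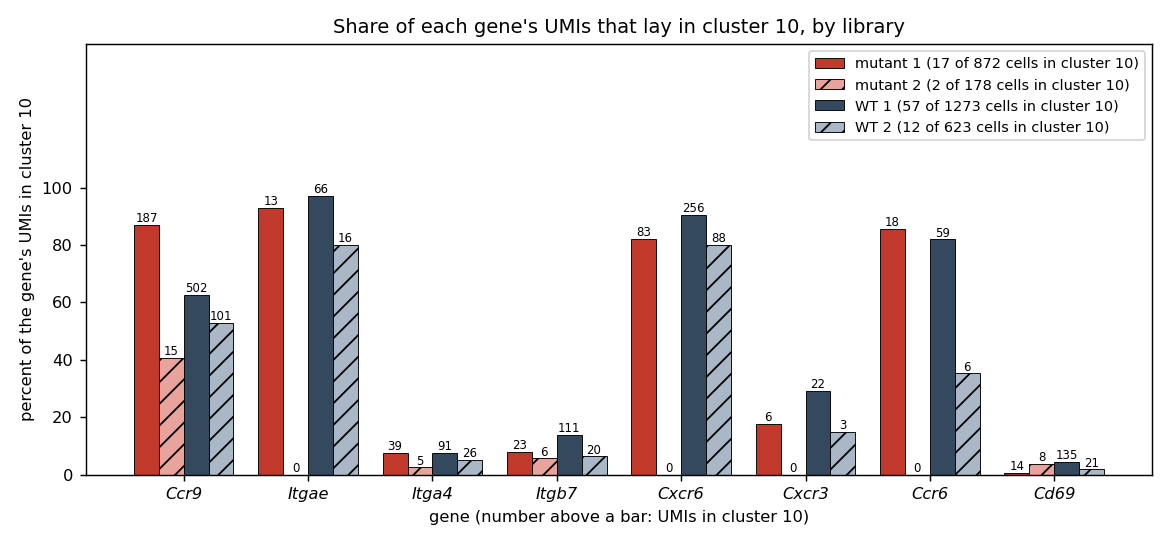
Percent of each gene's UMIs that lay in cluster 10, per library, with the number of those UMIs above each bar and mutant libraries left of WT libraries. Ccr9, Itgae, Cxcr6 and Ccr6 have most of their UMIs there in mutant 1 and WT 1, while mutant 2 has only 2 cells in the cluster and no UMI of Itgae, Cxcr6 or Ccr6 in them.

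The 4 restricted receptors met in the same cells. Among kept T cells, 92 had UMIs of at least 2 of Ccr9, Cxcr6, Itgae and Ccr6, and 75 of these lay in cluster 10. All 15 cells with UMIs of all 4 lay there. Within cluster 10, 66 of 67 cells with Cxcr6 also had Ccr9, and 37 of 40 cells with Itgae had Ccr9. Since 82 of the 88 cells had Ccr9, these counts are near the product of the 2 shares, which is 62.4 and 37.3 cells.

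The integrin partners were also found together. Of the 40 Itgae cells in cluster 10, 32 had Itgb7, and of its 55 Itga4 cells, 45 had Itgb7. Both Itga4 and Itgb7 were seen in 87 and 35 cells of the mutant libraries, where the product of the 2 shares gives 62.7 and 30.2, and in 258 and 88 cells of the WT libraries, where it gives 237 and 82.6. With cells thinned to 3000 UMIs, mutant 2 had fewer such cells than the product, 4 against 6.28, and the other 3 libraries had more. Outside cluster 10, Ccr9 and Cxcr6 were both seen in 10 of 2858 cells. These shares depend on depth, and cells of a library share their source.

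The promoters of the neighbours Ccr9 and Cxcr6 and of Ccr6 are shown because these genes share cluster 10. RefSeq windows (GRCm38.p6, 250 bases before to 50 after a start) were available for 6 of the 8 genes, 7 windows in all. They were searched on both strands for CAGAC (bound by Smad proteins, the mediators of TGF-beta), TGTGGT (bound by Runx factors) and AGGTCA (bound by nuclear receptors, among them those for retinoic acid), and matches are in capitals. Of 32851 windows, 49.6%, 16.8% and 16.3% hold these letters. The windows lie at chr9:123766961-123767260, chr9:123806227-123806526 and chr17:8235793-8236092, all on the plus strand.
Ccr9: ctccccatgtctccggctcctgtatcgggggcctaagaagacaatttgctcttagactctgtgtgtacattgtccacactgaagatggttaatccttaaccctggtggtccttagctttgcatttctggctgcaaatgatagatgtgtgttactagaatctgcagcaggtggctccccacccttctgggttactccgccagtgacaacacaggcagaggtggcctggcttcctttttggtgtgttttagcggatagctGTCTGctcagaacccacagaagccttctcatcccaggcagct
Cxcr6: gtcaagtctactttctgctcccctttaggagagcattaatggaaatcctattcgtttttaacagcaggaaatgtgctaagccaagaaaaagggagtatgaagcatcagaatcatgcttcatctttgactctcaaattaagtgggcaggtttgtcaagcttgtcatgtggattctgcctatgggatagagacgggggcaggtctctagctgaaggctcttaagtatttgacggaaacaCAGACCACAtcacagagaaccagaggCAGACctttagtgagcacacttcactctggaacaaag
Ccr6: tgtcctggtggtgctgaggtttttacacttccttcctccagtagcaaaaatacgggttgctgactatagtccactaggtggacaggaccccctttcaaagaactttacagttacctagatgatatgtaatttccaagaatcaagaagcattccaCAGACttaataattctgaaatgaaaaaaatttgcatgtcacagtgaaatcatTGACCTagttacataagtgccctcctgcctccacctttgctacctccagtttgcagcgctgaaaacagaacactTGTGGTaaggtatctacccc
The Ccr9 window holds the Smad letters once, in reverse complement. The Cxcr6 window holds them 2 times, and the first match overlaps the Runx letters in reverse complement. The Ccr6 window, the first of 2 for that gene, holds all 3 kinds of letters. A match is a description of the letters and no evidence of binding.

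The genotype comparison asked whether the M318R cells differed in these receptors. Over all kept T cells, all 8 receptors had a lower mean level in mutant than in WT libraries, and none passed the threshold of 0.05 in edgeR's quasi-likelihood test, adjusted by Benjamini-Hochberg over 10621 genes. Of the 10621, 118 genes, 1.11%, were called: 66 higher in mutant libraries, 0.621%, and 52 lower, 0.49%. Unadjusted p was under 0.05 for 5 of the 8 in edgeR and for 1 of 8 in DESeq2, which also called none. Over all 10621 genes, 1257 had such a p in edgeR and 552 in DESeq2. The median log2 difference of the 8 was -0.73, and of all genes tested -0.01. For 4 of the 8, Ccr9, Itgae, Cxcr6 and Ccr6, both mutant libraries lay below both WT libraries, which 22.7% of all genes tested did.

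Ccr9 had 28.7 and 22.0 CPM in the mutant libraries, against 69.0 and 34.8 CPM in the WT libraries (TMM-scaled, as all CPM by library over all kept T cells). WT 1 stood highest, and the groups did not overlap. The log2 difference was -0.998 ± 0.25 (SE; edgeR adjusted p = 0.0622). Without WT 1 it was -0.40 (adjusted p = 1.00), and without WT 2 it was -1.38 (adjusted p = 2.55e-06), so that WT 1 decides its size. In these sums, fewer cells of a state and less RNA per cell cannot be told apart.

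Cxcr6 had 13.5 and 1.19 CPM in the mutant libraries, against 24.4 and 20.02 CPM in the WT libraries. Mutant 2, with 2 UMIs in all, was far the lowest. The log2 difference was -1.13 ± 0.33 (edgeR adjusted p = 0.126). It passed without mutant 1 (-4.23, adjusted p = 0.00589) and without WT 2 (-1.29, adjusted p = 0.000743), and over all alternatives the adjusted p ran from 2.35e-05 to 1.00.

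Ccr6 had 2.81 CPM in mutant 1 and 0 UMIs in mutant 2, against 6.20 and 3.09 CPM in the WT libraries. The 4 values rest on 110 UMIs, and the difference did not pass (-1.18 ± 0.54, edgeR adjusted p = 0.393). Cxcr3 had 4.54 and 1.78 CPM in the mutant libraries, against 6.45 and 3.64 CPM in the WT libraries. These ranges overlapped, and the difference was -0.46 ± 0.41 (edgeR adjusted p = 0.700).

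Itgae had 1.87 and 1.19 CPM in the mutant libraries, against 5.85 and 3.64 CPM in the WT libraries. The groups did not overlap, on 14 and 2 UMIs against 68 and 20 UMIs. The difference was -1.51 ± 0.47 (edgeR adjusted p = 0.148). Its partner Itgb7 had 38.6 and 62.4 CPM in the mutant libraries, against 68.2 and 57.0 CPM in the WT libraries. Here mutant 2 lay between the WT libraries (-0.41 ± 0.19, edgeR adjusted p = 0.407), and without mutant 2 the difference passed (-0.70, adjusted p = 0.0217; 0.0217 to 1.00 over all alternatives).

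Itga4 had 69.1 and 115 CPM in the mutant libraries, against 105 and 90.5 CPM in the WT libraries. The mutant libraries enclosed the WT libraries, and the difference was -0.16 ± 0.19 (edgeR adjusted p = 0.781). Cd69 had 238 and 122 CPM in the mutant libraries, against 264 and 207 CPM in the WT libraries. Mutant 1 lay between the WT libraries, and the difference was -0.35 ± 0.21 (edgeR adjusted p = 0.552). It was 0.01 without mutant 2 and -0.96 without mutant 1 (adjusted p = 0.983 and 0.0342). Cd69 was lowest in mutant 2 in all 6 clusters with 10 or more kept cells in each library. These clusters come from the same libraries and do not repeat each other. In the smaller clusters, with 1 to 7 cells of mutant 2, it was lowest there in cluster 4 and not in clusters 6, 8, 10 and 11.

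**Figure D3:**
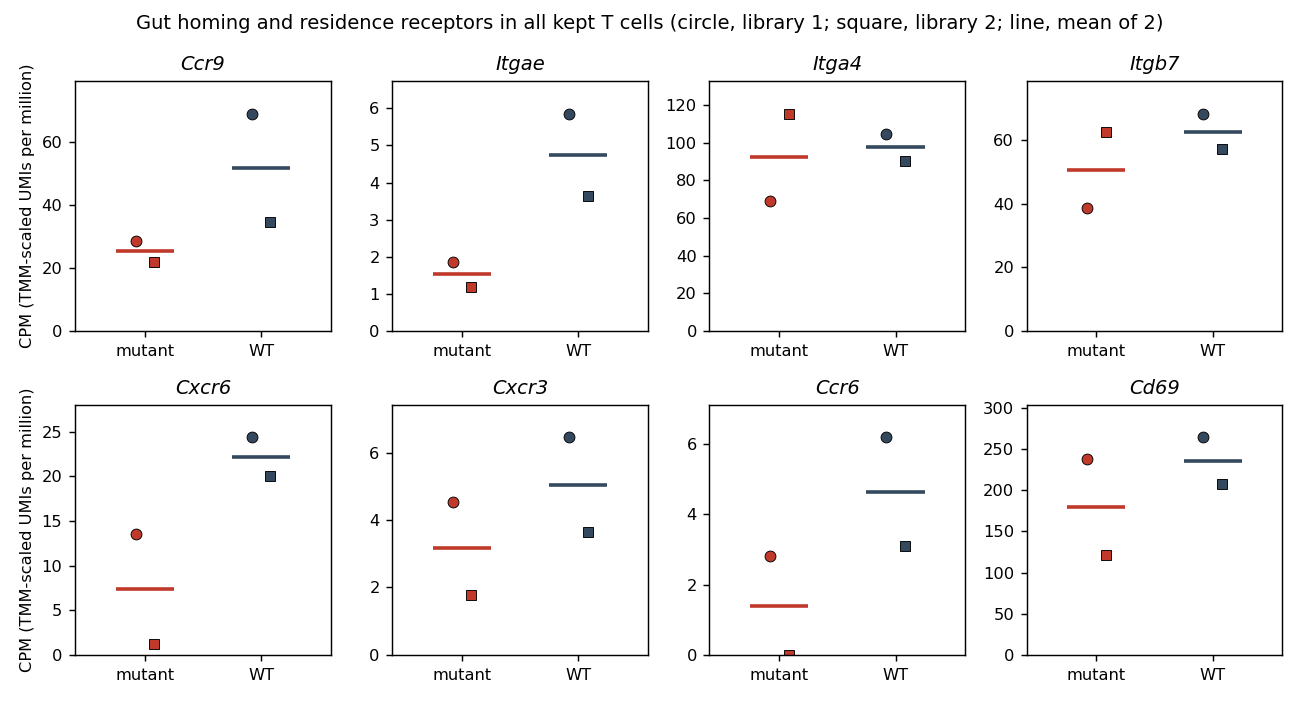
TMM-scaled CPM of each receptor over all kept T cells, mutant left of WT, with circles for library 1, squares for library 2 and lines for the mean of the 2. Both mutant points lie below both WT points for Ccr9, Itgae, Cxcr6 and Ccr6, and the groups overlap for the other 4.

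Cluster 10 was unevenly shared, with 17 of 872 and 2 of 178 kept cells in the mutant libraries, against 57 of 1273 and 12 of 623 in the WT libraries. These are 1.95% and 1.12%, against 4.48% and 1.93%, so that mutant 1 and WT 2 were alike. Within the cluster, Ccr9 gave 1300 and 678 CPM in the mutant libraries, against 1229 and 935 CPM in the WT libraries, and the groups overlapped. Cxcr6 gave 577 CPM in mutant 1, against 627 and 815 CPM in the WT libraries, and Itgae gave 90.4 CPM in mutant 1, against 162 and 148 CPM. The 2 cells of mutant 2 had 15 Ccr9 UMIs and none of Cxcr6, Itgae or Ccr6, where 3 counts correspond to 136 CPM. With 2 cells in a library, no test was run inside cluster 10.

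Leaving out cluster 10, an alternative chosen after seeing the data, split the receptors. Ccr9 then passed, at 3.74 and 13.7 CPM in the mutant libraries against 26.2 and 16.6 CPM in the WT libraries (not TMM-scaled). The log2 difference was -1.89 ± 0.36 (edgeR adjusted p = 0.0102; 2.55e-06 to 1.00 over all alternatives). Cxcr6 shrank to -0.51 ± 0.50 (adjusted p = 0.732; 2.35e-05 to 1.00 over all alternatives). Itgae and Ccr6 had too few UMIs left to test. Itga4, Itgb7, Cxcr3 and Cd69 moved by at most the standard error of their difference.

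**Figure D4:**
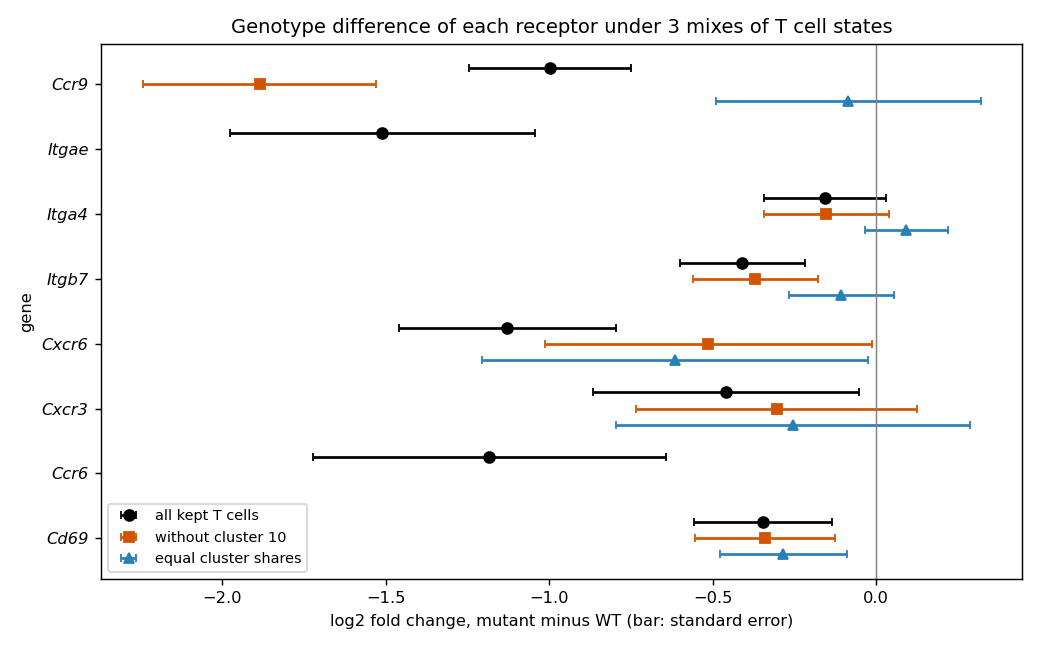
Log2 fold change, mutant minus WT, of each receptor with its standard error over all kept T cells (circles), without cluster 10 (squares) and with 6 clusters given equal shares in each library (triangles). Ccr9 lies at -0.998, -1.89 and -0.09, and Itgae and Ccr6 have a value only over all kept T cells.

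Cluster 4 held 256 of the 440 Ccr9 UMIs outside cluster 10. It made up 32 of 872 and 7 of 178 kept cells in the mutant libraries, against 267 of 1273 and 71 of 623 in the WT libraries. Its leading genes include Nr4a1, which itself was lower in mutant libraries, so the shares describe each library's makeup and are no result of their own. Within cluster 4, Ccr9 gave 16.3 and 35.3 CPM in the mutant libraries (5 and 3 UMIs), against 73.2 and 65.2 CPM in the WT libraries (203 and 45 UMIs). Exact Poisson intervals, for counting error only, were 5.30 to 38.1 and 7.28 to 103 CPM, against 63.5 to 84.0 and 47.5 to 87.2 CPM. Both mutant values lay below both WT values, and the interval of mutant 2 reached over those of the WT libraries.

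Cluster 3 went another way in 1 library. Ccr9 gave 30.2 and 95.2 CPM there in the mutant libraries, against 31.2 and 32.6 CPM in the WT libraries. The highest value rests on 18 UMIs in 5 of 17 cells of mutant 2. When 6 clusters with at least 10 cells in every library were given equal shares, which leaves out clusters 4, 6, 8, 10 and 11, the Ccr9 difference was -0.09 ± 0.40 (edgeR adjusted p = 0.968; 2.55e-06 to 1.00 over all alternatives).

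**Figure D5:**
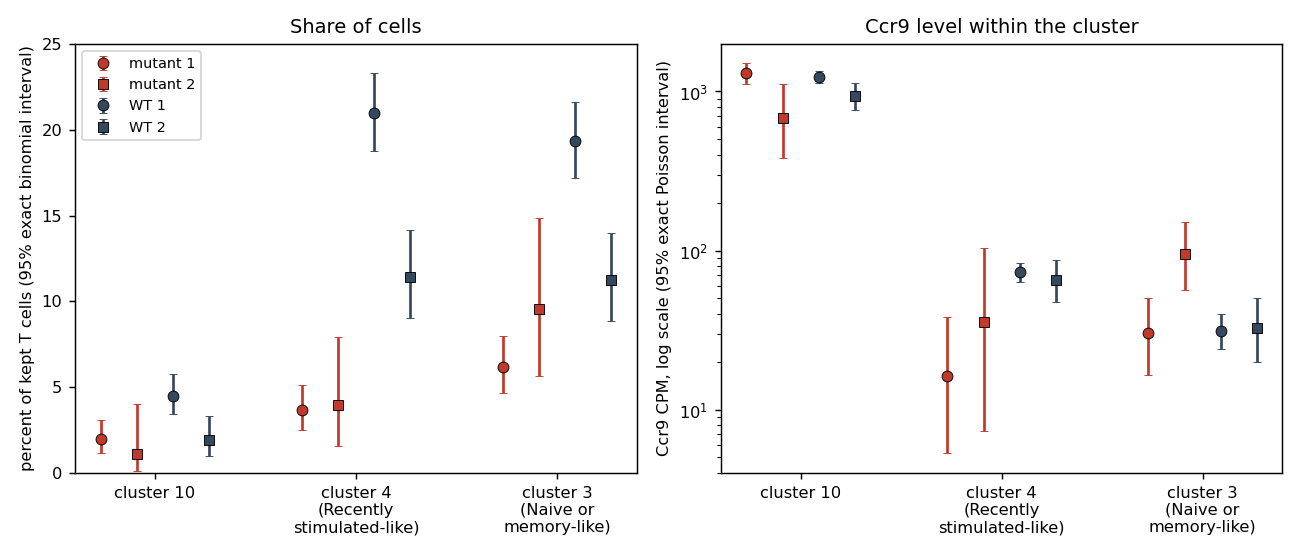
Left, percent of each library's kept T cells in clusters 10, 4 and 3, with 95% exact binomial intervals. Right, Ccr9 CPM within those clusters on a log axis, with 95% exact Poisson intervals, both for counting error only. Within cluster 4 the mutant values, 16.3 and 35.3 CPM, lie below the WT values, 73.2 and 65.2 CPM, and within cluster 10 the genotypes overlap.

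Tests within a state were possible where every library had 20 or more kept cells: the Tfh-like class, the Recently stimulated-like class and cluster 5. In the Recently stimulated-like class, Ccr9 fell: it had 2.87 and 7.62 CPM in the mutant libraries (5 and 3 UMIs), against 54.2 and 29.5 CPM in the WT libraries (203 and 45 UMIs). The log2 difference was -3.52 ± 0.44 (edgeR adjusted p = 5.86e-07), where 1.61% of 8426 genes were called and 0.783% were called lower in mutant libraries. With 8 mutant UMIs in all, Ccr9 met the filter on low counts through the WT libraries. It passed in all 6 alternatives that gave a value, with adjusted p from 3.27e-14 to 0.0169. Every Ccr9 UMI of the class lay in cluster 4, which made up 32 of 214 and 7 of 43 cells of the class in the mutant libraries, against 267 of 379 and 71 of 173 in the WT libraries. The rest was cluster 1, with no Ccr9 UMI in either genotype. The value therefore joins the class's makeup and the level within cluster 4. The 6 alternatives were DESeq2, the replicate block and leaving out each library, all with clusters 1 and 4 as the class. Cluster 1 alone and a higher clustering resolution gave no Ccr9 value. With the receptors among the variable genes, the class had 6 cells in mutant 2 and was not tested. The call was therefore not tested under another makeup of the class.

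No other receptor passed within a state. In the Recently stimulated-like class, Cd69 had 215 and 107 CPM in the mutant libraries, against 265 and 221 CPM in the WT libraries (-0.50 ± 0.21, edgeR adjusted p = 0.284). In cluster 5, where 0.372% of 5917 genes were called, edgeR called 0 of the 3 receptors tested, 1 had an unadjusted p under 0.05 (Cd69, -0.61 ± 0.19, adjusted p = 0.161), and DESeq2 called 0. Both Cd69 differences passed without mutant 1, which leaves mutant 2 alone, at -1.27 (adjusted p = 0.0148; 0.0148 to 1.00 over all alternatives) and at -1.63 (adjusted p = 0.000219; 0.000219 to 1.00). In the Tfh-like class, where 0.221% of 9041 genes were called, Itga4, Itgb7 and Cd69 were tested, and edgeR and DESeq2 called 0, with 0 of 3 at an unadjusted p under 0.05 in edgeR. There too Cd69 passed without mutant 1, at -0.92 (adjusted p = 0.0148; 0.0148 to 1.00 over all alternatives), while over the 4 libraries it was 0.07.

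Tfh-like cells had few UMIs of Ccr9, Itgae and Ccr6 in either genotype. Ccr9 had 2 and 0 UMIs in the mutant libraries and 1 and 1 in the WT libraries, in 0.361% of all 831 Tfh-like cells. Itgae and Ccr6 each had a UMI in 0.241% of them, while Cxcr6 had one in 3.61% and Cxcr3 in 3.01%. The Ccr9 share serves as background for the shares of cells with a Ccr9 UMI, which were 3.10% and 5.62% of kept cells in the mutant libraries and 11.7% and 6.10% in the WT libraries. Median depth was 10957 and 8187 UMIs in clusters 0 and 2 and 8710 UMIs over all kept T cells. With cells thinned to 3000 UMIs each, which left out 34 and 22 shallower mutant cells and 16 and 20 WT cells, the Ccr9 share averaged 2.92% ± 0.41 in mutant and 6.13% ± 2.81 in WT libraries (SD, n = 2 each). A two-sided exact permutation test of 2 against 2 libraries gave p = 0.333, the smallest it can give.

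Whether the genotype effect differed between the Recently stimulated-like and Tfh-like classes was read from an interaction term, with each library as its own block, where 1.5% of 9204 genes were called. Of 4 receptors tested, edgeR called 0, and 2 had an unadjusted p under 0.05. The difference of effects was -0.55 ± 0.18 for Cd69 (edgeR adjusted p = 0.111), and it passed without WT 2 (-0.72, adjusted p = 0.0299; 0.0299 to 1.00 over all alternatives). For Ccr9 it was -3.47 ± 1.71 (adjusted p = 0.453), with 4 UMIs in all Tfh-like cells. It was 0.35 for Itga4 and -0.39 for Itgb7 (adjusted p = 0.780 and 0.781).

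Other genes of migration were read from 9 lists, chosen with earlier results of these data known. Of 71 different genes tested over all kept T cells, 2 rose and 8 fell by edgeR's adjusted p. Over all 10621 genes tested, 0.621% rose and 0.49% fell, the shares to set beside each list count below. The median log2 difference was -0.29 over chemokine and migration receptors, 0.24 over integrin subunits, 0.03 over integrin activation, -0.42 over selectin binding and rolling, and -0.01 over tissue residence. It was -0.55 over egress and recirculation, -0.55 over the retinoic acid response, -0.24 over TGF-beta feedback targets and 0.28 over ligands.

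Of 8 tested genes of egress and recirculation, 3 fell and 0 rose, where 0.49% of all 10621 genes fell. Ccr7, which guides T cells to lymph node T zones, had 34.3 and 44.6 CPM in the mutant libraries, against 85.5 and 63.0 CPM in the WT libraries (-0.98 ± 0.18, edgeR adjusted p = 0.0103). Klf2, the transcription factor that maintains S1pr1, had 35.5 and 88.0 CPM, against 154 and 96.6 CPM (-1.20 ± 0.28, adjusted p = 0.0472). Lef1, a factor of naive T cells, fell as well (-0.68, adjusted p = 0.0227). Without mutant 1 and without WT 1 none of the 3 passed: Ccr7 was -0.76 and -0.72 (adjusted p = 0.112 and 0.375), Klf2 -0.53 and -0.77 (0.253 and 0.231), and Lef1 -0.65 and -0.57 (0.0684 and 1.00). With equal cluster shares none of the 3 passed either: Ccr7 was -0.038 (adjusted p = 0.958; 2.26e-06 to 0.958 over all alternatives), Klf2 -0.45 (0.330; 2.55e-10 to 1.00) and Lef1 -0.35 (0.292; 0.00135 to 1.00). DESeq2 called Ccr7 and Lef1 and did not call Klf2 (adjusted p = 1.00).

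S1pr1 itself, the exit receptor that CD69 opposes, named after its values were seen, did not pass (-0.57 ± 0.20, adjusted p = 0.202). Selplg, the P-selectin ligand, fell (log2 difference -0.73, adjusted p = 0.0375) and was 1 of 6 tested genes of selectin binding and rolling. Without mutant 1 and without WT 1 it was -0.50 and -0.54 (adjusted p = 0.165 and 1.00), with equal cluster shares it was -0.38 (adjusted p = 0.387), and DESeq2 did not call it (adjusted p = 0.147; 0.000764 to 1.00 over all alternatives).

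Of 7 other integrin subunits, 1 rose and 0 fell, where 0.621% of all 10621 genes rose. Itgb8, whose integrin αvβ8 activates latent TGF-beta, had 47.4 and 26.7 CPM in the mutant libraries, against 14.6 and 21.7 CPM in the WT libraries (1.19 ± 0.22, edgeR adjusted p = 0.0111). Without mutant 1 and without WT 1 it was 0.60 and 0.87 (adjusted p = 0.286 and 0.218), and DESeq2 did not call it (adjusted p = 0.107; 2.79e-08 to 0.454 over all alternatives). With equal cluster shares Itgb8 still passed (0.86, edgeR adjusted p = 0.0386). Its level was highest in the Tfh-like clusters 0 and 2, at 66.0 and 62.9 CPM, which is where Itga4 was lowest. Of 11 integrin activation genes edgeR called 0, with 5 at an unadjusted p under 0.05 (1257 of all 10621 genes), and DESeq2 called 0, with 3 at an unadjusted p under 0.05 (552 of all 10621 genes).

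Of 19 tested genes of tissue residence, 2 fell and 0 rose, where 0.49% of all 10621 genes fell. Those called were Ahr, the aryl hydrocarbon receptor that sustains gut T cells (-0.99 ± 0.18, edgeR adjusted p = 0.00995), and Nr4a1, induced by receptor signalling (-0.92 ± 0.19, adjusted p = 0.0195). Ahr had 16.7 and 20.2 CPM in the mutant libraries, against 37.9 and 31.7 CPM in the WT libraries, and cluster 10 held 18.5% of its UMIs. Without mutant 1 and without WT 1, Ahr was -0.81 and -0.83 (adjusted p = 0.111 and 0.330) and Nr4a1 -1.11 and -0.60 (0.0707 and 1.00). With equal cluster shares Nr4a1 was -0.44 (adjusted p = 0.459; 7.12e-06 to 1.00 over all alternatives), and DESeq2 did not call Ahr (adjusted p = 0.132; 3.93e-05 to 0.330 over all alternatives). With equal cluster shares Ahr still passed (-0.88, edgeR adjusted p = 0.0386), and DESeq2 called Nr4a1 (adjusted p = 0.0412). Prdm1 and Runx3, regulators of residence named after their values were seen, did not pass (-0.21 and -0.30, edgeR adjusted p = 0.886 and 0.518).

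Among 6 tested genes of the retinoic acid response, Dhrs3, a retinal reductase, rose (0.91, edgeR adjusted p = 0.0406) and none fell. Without mutant 1 and without WT 1, Dhrs3 was 0.58 and 0.54 (adjusted p = 0.246 and 1.00), with equal cluster shares it was 0.24 (adjusted p = 0.524), and DESeq2 did not call it (adjusted p = 1.00; 2.55e-06 to 1.00 over all alternatives). Among 7 feedback targets of TGF-beta, Pmepa1 and Skil fell (-1.22 ± 0.16 and -0.81 ± 0.15, adjusted p = 0.000927 and 0.00837). Pmepa1 passed with each library left out in turn, and Skil did not without WT 1 (-0.82, adjusted p = 0.133). Over all 15 alternatives Pmepa1 passed in 14 and Skil in 13. With the epithelial-like cluster kept, where edgeR called 0 genes, neither Pmepa1 nor Skil passed (-1.23 and -0.81, edgeR adjusted p = 0.213 and 0.288). Of 18 chemokine and migration receptors 9 were tested, and Ccr7 was the 1 called. Of 10 ligands of the receptors, made mainly by other cells, 2 were tested and edgeR called 0, with 0 of them at an unadjusted p under 0.05, and DESeq2 also called 0.

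The genes whose levels were most like a receptor's were ranked over 32 units, each a cluster in 1 library with 20 or more kept cells, from 10 clusters. The measure was Pearson's r of log2(CPM + 10), and units of a library share its depth and handling. For Ccr9 they were Snx9, Lztfl1 and Foxp3 (r = 0.87, 0.86 and 0.84), and without the 1 unit of cluster 10 these were 0.75, 0.73 and 0.68. Lztfl1 overlaps Ccr9 on the opposite strand. For Cxcr6 they were Gzmb, Arl5a and Neb (r = 0.92, 0.92 and 0.91). Without the unit of cluster 10, Gzmb gave 0 and Neb -0.03, so that both rested on it, while Arl5a gave 0.57.

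For Itga4 the closest were Smad7, an inhibitor in the TGF-beta pathway, Hspa4l and Arhgap9 (r = 0.88, 0.87 and 0.86), with Smad7 at 0.87 without cluster 10. For Itgb7 they were Emb, Gimap3 and Igflr1 (r = 0.86, 0.85 and 0.82). Cd69 had weaker likenesses, with Utp18, Zhx1 and H2-K1 at 0.74, 0.67 and 0.66. Itgae, Cxcr3 and Ccr6 had under 200 UMIs each and were not ranked.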

How the data were processed

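The deposited matrices hold whole-number UMI counts per gene and barcode. Per the submitters' processing notes, Cell Ranger 6.0.0, Seurat 4 and the mm10 build were used; per the labels, libraries were 10x 3′. The counting of strand is not given in the sources used here. Barcodes needed 500 or more detected genes and no more than 10% mitochondrial UMIs. Scrublet removed 31 doublets, and 131 cells in an epithelial-like cluster were left out. Cells were clustered with scanpy 1.11.5 (2000 variable genes without the 8 receptors, 30 principal components, 15 neighbours, Leiden resolution 0.8). A cluster was named where at least 3 markers of 1 list stood among its 50 leading genes, with no tie.

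Counts were summed per library over all kept T cells and over each class with 20 or more cells in every library, and tested with edgeR 4.0.16 (filterByExpr, TMM, quasi-likelihood, Benjamini-Hochberg 0.05, mutant minus WT). The procedure was tested on simulated data. DESeq2 1.42.0, other normalizations, filters, clusterings, a replicate block and leaving out each library were alternatives. Leaving out cluster 10, cluster 9 or shared barcodes, and testing clusters alone, were chosen after seeing the data. Intervals are exact (Clopper-Pearson or Poisson, 95%) and cover counting error only. For a count of 0 a floor of 3 counts is given, which is not the upper end of these intervals. Named genes were the 8 receptors, list genes past the threshold and, for receptors with 200 or more UMIs, the 3 most like genes by Pearson's r of log2(CPM + 10). The members and lists were chosen with earlier results of these data known. Same-numbered libraries were not treated as pairs (correlation of deviations 0.043 over 10621 genes). The 2 further hashtag samples were not analysed here.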

Additional observations from a re-analysis of the deposited data

How the results depend on the processing

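Of 483 alternative values, 366 were rated the same as the main value and 21 as reversed. For fold changes, the same meant an unchanged direction and side of the threshold. Counts of called genes were rated by a factor of 1.5, and shares and percents have no threshold. Over all kept T cells 118 genes were called; DESeq2 called 44, library totals without TMM 59, no filter 360, the replicate block 271, equal cluster shares 46, the epithelial-like cluster kept 0 (edgeR, 958 at an unadjusted p under 0.05), and leaving out a library 39 to 321. Whether same-numbered libraries were handled together is not given in the labels, and the main test did not pair them. None of the 10 called list genes changed sign in any alternative run, and 50 of their values no longer passed. Ccr9 passed with no filter (-1.01, adjusted p = 4.84e-06), with the replicate block (-1.06), with a wider cell filter (-1.06) and without cluster 10 (-1.89), and ran from -1.38 to -0.40 with a library left out. Itgae passed with no filter (-1.52; -2.05 to -1.09 with a library left out). Cxcr6 passed with no filter (-1.14) and the replicate block (-1.32; -4.23 to -0.73 with a library left out). Itga4 was 0.092 with equal cluster shares (-0.50 to 0.23 with a library left out). With a library left out, Itgb7 ran from -0.70 to -0.020, Cxcr3 from -1.57 to 0.039, Cd69 from -0.96 to 0.012, and Ccr6 from -7.96, which is no bound because mutant 2 had 0 UMIs, to -0.59.

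Tfh-like cells had 20 calls, against 46 at resolution 1.2, 1 with DESeq2, 81 with the replicate block, 47 with the receptors among the variable genes, 33 in cluster 0 alone and 18 to 127 with a library left out. Recently stimulated-like cells had 136, against 7 at resolution 1.2, 14 with DESeq2, 3 in cluster 1 alone and 11 to 239 with a library left out. Cluster 5 had 22, against 2 with DESeq2 and 3 to 59. The interaction had 138, against 13 with the receptors among the variable genes and 32 to 163; Ccr9 ran from -3.98 to 0.36 and Cd69 from -0.72 to -0.36. In Tfh-like cells Itgb7 was 0.072 at resolution 1.2, 0.12 with DESeq2, 0.045 with the replicate block, 0.35 in cluster 0 alone and -0.30 to 0.59 with a library left out; Cd69 was -0.078 with DESeq2, -0.071 with the replicate block, -0.24 in cluster 2 alone and -0.92 to 0.43; Itga4 ran from -0.47 to 0.085. In Recently stimulated-like cells Itga4 was -0.050 in cluster 1 alone and -0.27 to 0.81. In cluster 5, Itga4 ran from -0.46 to 0.31 and Itgb7 from -0.25 to 0.25. At resolution 1.2 the top cluster held 80.7% of Cxcr6 and 4.39% of Cd69 UMIs. The cause was not tested. With the receptors among the variable genes, the Recently stimulated-like class had 6 cells in mutant 2 and was not tested. The 13 interaction calls of that clustering compare an unnamed cluster with Tfh-like cells instead. They therefore do not show what adding the receptors alone does to the 138 calls. Cluster 5 had no match at other clusterings, and Itgae and Ccr6 gave no value without cluster 10 or with equal shares. A lone library is assumed to vary like the other genotype's; few UMIs of Itgae, Ccr6 and Cxcr3 limit their precision.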

Other observations

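In the epithelial-like cluster that was left out, Ccr6 had 18 UMIs in 10 of the 53 barcodes with a Cd79a UMI (18.9%), and Cxcr3 had 24 UMIs in 6 of the 78 barcodes without one.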
